A study of Mus musculus with 6 samples.

Results

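The genes of sterol and fatty acid synthesis were examined in activated CD4 T cells of mice lacking the microRNA miR-155 (KO) and of wild-type (WT) mice. The 35 genes, 21 for sterols and 14 for fatty acids, were chosen by name from the pathways, with earlier results of these data known. Every probe set that GEO's platform annotation assigns to one of them was taken. This gave 69 probe sets for 33 of the genes, out of 20380 probe sets for 12393 genes in all. Insig1 and Acsl3 were matched by no probe set and were not analysed here. Where a gene had several probe sets, the brightest was tested. Acaca, the carboxylase that makes malonyl-CoA, lay below the lowest mean that entered the test (4.72 in log2 units), which left 32 genes, 20 for sterols and 12 for fatty acids.

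All mice were C57BL/6. The labels give the KO genotype as miR-155 KO without naming the allele, and the series design points to a published knockout line. Cells were taken from spleen and lymph nodes with CD4 dynabeads and activated for 3 days with CD3 and CD28 antibodies (1 µg/mL) and IL-2 (20 U/mL), in both genotypes alike. There are 3 arrays per genotype, stated to come from different mice, and the sources give no age. Values are log2 signals that the authors made with RMA, so a level can be compared between arrays for 1 probe set but not between genes. In bulk RNA, fewer cells of a type and less RNA per cell cannot be told apart. Below, values on the arrays are given in the order replicate 1, 2 and 3, and a difference is KO minus WT in log2 units.

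The microRNA that the KO mice lack acts through its seed, bases 2 to 8, in capitals in its mature strand from RefSeq (GRCm38.p6, chr16:84714143-84714165, plus strand).
mmu-miR-155-5p: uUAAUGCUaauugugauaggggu
Its host transcript, Mir155hg, had KO values of 3.51, 3.89 and 4.45 and WT values of 7.69, 6.59 and 8.21. No KO array came near a WT array, which checks the labels.

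Cells make cholesterol from acetyl-CoA through mevalonate and squalene, and fatty acids from the same acetyl-CoA through malonyl-CoA. Both routes are switched on by the SREBP transcription factors, which Srebf1 and Srebf2 encode. Scap carries these factors out of the endoplasmic reticulum for cleavage, and the Insig proteins hold them back when sterols are plentiful. T cells that divide after activation use both routes to build membrane. When oxysterols accumulate, the LXR receptors raise the cholesterol exporters Abca1 and Abcg1 and also Srebf1.

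KO replicate 1 stood apart from the other arrays. On the first principal component (61.9% of the variance) it scored -41.3, and the others scored from -14.6 to 26.1. Its level of a list of 19 cell cycle genes (the median of log2 signal minus the mean of the 6 arrays) was -0.89, where KO replicates 2 and 3 were at 0.05 and 0.00 and the WT arrays at 0.28 to 0.33. Its level of a list of 9 HIF response genes was 0.88, where the others ranged from -0.38 to 0.06. The part of these differences in the results was not tested, and results are therefore also given without that array. Sex-linked transcripts went with the replicate number in both genotypes. The replicate 1 arrays were high in Xist (13.35 and 13.08) and low in the Y-linked Eif2s3y (3.50 and 3.44), the replicate 2 arrays the reverse (Xist 5.94 and 5.66, Eif2s3y 10.41 and 10.51), and the replicate 3 arrays high in both (Xist 12.59 and 12.64, Eif2s3y 10.05 and 10.21); whether each of these is from 1 mouse, as stated, was not tested.

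CD4 T cell markers were present on every array, Cd4 itself at 8.89 to 9.25 in KO and 8.83 to 9.23 in WT, and the mean of the 7 measured markers was 11.08 to 11.32 in KO and 10.73 to 11.17 in WT. Adipocytes, which are rich in Scd1, surround lymph nodes. Their markers Adipoq, Cidec and Lep lay below the lowest mean tested. Retn and Car3 lay above it, with means of 6.17 and 4.90, and were higher in KO by 0.23 and 0.06, with overlapping groups. The mean of the 5 measured was 4.35 to 4.41 in KO and 4.19 to 4.40 in WT, and its part in the results was not tested. The other marker lists had means that overlapped between genotypes. The CD8 T cell list was at 6.88 to 7.08 in KO and 6.91 to 7.02 in WT, and the NK cell list, with Ncr1 below the lowest mean tested, at 6.46 to 6.81 and 6.55 to 7.08. The neutrophil list was at 3.94 to 3.99 and 3.94 to 3.98, with all 4 measured markers below it. The B cell list was at 5.91 to 6.52 in KO and 5.79 to 6.66 in WT, with Pax5 below the lowest mean tested. The macrophage list was at 4.90 to 5.21 and 4.75 to 5.05, with Lyz2, Itgam and Cd14 below it. Its 3 markers above that mean were all higher in KO, Csf1r by 0.16, Cd68 by 0.63 and Adgre1 by 0.29, with overlapping groups. Without KO replicate 1 these were 0.22, 0.39 and 0.22, and their part in the results was not tested. The dendritic cell list was at 5.78 to 6.07 in KO and 5.62 to 6.11 in WT, with Itgax and Xcr1 below the lowest mean tested. The erythroid list was at 5.21 to 5.58 and 5.29 to 5.43, with Hba-a1 below that mean.

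Genes of both pathways tended to be lower in KO, but none passed the test over all genes. Of the 32 tested, 0 had a limma p under 0.05 after Benjamini-Hochberg adjustment over 9295 genes, as did 0.0% of all genes, the smallest adjusted p being 0.545. Mir155hg, with a difference of -3.545, did not pass either (adjusted limma p 0.545). Failing this test therefore does not show that a gene was unchanged. At an unadjusted limma p under 0.05, 4 genes were lower in KO (Scd1, Fads2, Fads1 and Dhcr7), as were 3.86% of all genes, and 1 was higher (Abca1), as were 3.57% of all genes. Every KO array lay below every WT array in 11 genes, against 6.92% of all genes, and above in 1 gene, against 5.86%. The KO mean was lower in 26 of the 32, with a median difference of -0.23, where 50.8% of all genes were lower and their median was -0.0036.

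Without KO replicate 1, 25 of the 32 were lower, with a median of -0.08, where 52.4% of all genes were lower with a median of -0.01. Scd1 and Fads2 were then the 2 genes with an unadjusted limma p under 0.05 on the lower side (2.64% of all genes), there were 0 on the higher side (2.28%), and 0 passed after adjustment (0.0%). The groups were apart in 11 genes on the lower side (11.4% of all genes) and in 1 on the higher side (10.5%). These were the genes apart with all arrays, and leaving out an array cannot make such groups overlap. A limma fit with array weights called 13 of the 32 after adjustment, but 38.5% of all genes too, and it rested mostly on KO replicate 3 and WT replicate 2. Weights from a gene-by-gene estimate called 0.

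**Figure D1:**
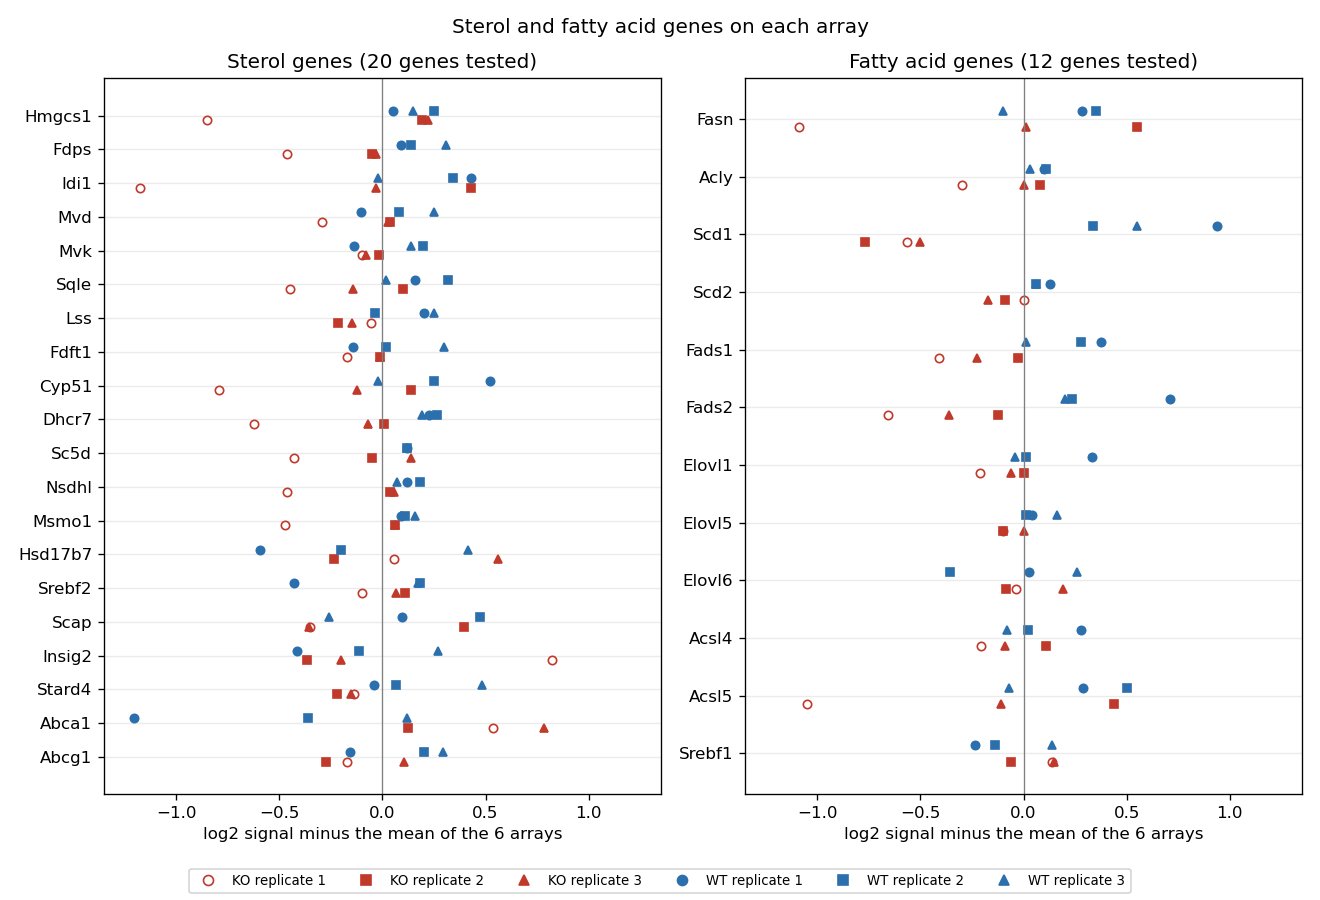
Log2 signal of each tested gene on each array, minus the gene's mean over the 6 arrays, with sterol genes on the left and fatty acid genes on the right. Red marks are KO and blue marks WT arrays, marker shape gives the replicate, and KO replicate 1 is open. KO replicate 1 lies far to the left in Hmgcs1, Idi1, Cyp51, Fasn and Acsl5, while in Scd1 and Fads2 all 3 KO arrays lie to the left of all WT arrays.

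The desaturases had the lowest median difference of the groups of members, and all 3 KO arrays were low in each of them. These enzymes put double bonds into fatty acids: Scd1 and Scd2 make oleate and palmitoleate, and Fads2 and Fads1 act in turn on the essential polyunsaturated acids. All 4 genes were lower in KO, with a median difference of -0.60, or -0.49 without KO replicate 1. In all 4 the groups did not overlap, against 6.92% of all genes on the lower side. This had to hold without that array too, so it adds nothing there. Of their 8 probe sets, 8 had a lower KO mean and 6 had groups apart. Over all probe sets 5.95% had groups apart on the lower side and 5.85% on the higher side, and 0.0% passed after adjustment.

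Scd1 had the largest difference of the 32 genes. Its brightest probe set had KO values of 8.68, 8.47 and 8.74 and WT values of 10.18, 9.58 and 9.79. The highest KO array lay 0.84 below the lowest WT array. The group means were 8.63 ± 0.14 in KO and 9.85 ± 0.31 in WT (SD, n = 3 each), which differ by -1.22 ± 0.18 (SE; 95% interval -1.66 to -0.79). This limma estimate had a p of 0.000345, 4th smallest of all genes tested, and an adjusted p of 0.545. An exact two-sided permutation test gave 0.1, and with 3 arrays a group no lower p is possible. On the weaker probe set the KO arrays read 6.60, 6.18 and 6.31 and the WT arrays 7.98, 6.91 and 7.36, again without overlap. Between arrays of the same number the brightest probe set differed by -1.51, -1.11 and -1.05, and without KO replicate 1 the groups differed by -1.25.

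Fads2, the delta-6 desaturase, came next among the genes that were lower in KO. It had KO values of 6.91, 7.44 and 7.21 and WT values of 8.27, 7.80 and 7.77, with 0.33 between the groups. WT replicate 1 was the highest array and KO replicate 1 the lowest. The difference was -0.76 ± 0.20 (SE; 95% interval -1.24 to -0.28), with a limma p of 0.00759 before and 0.631 after adjustment. Its other probe set ordered the groups alike, at 6.81, 6.97 and 6.72 in KO and 7.62, 7.23 and 7.16 in WT. By replicate number the differences were -1.36, -0.36 and -0.56, and without KO replicate 1 the difference was -0.62.

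Fads1, the delta-5 desaturase, had KO values of 7.47, 7.85 and 7.65 and WT values of 8.25, 8.16 and 7.89. The groups were apart by only 0.04. The difference of -0.44 ± 0.16 (SE) had a limma p of 0.0268 before and 0.631 after adjustment, and it was -0.35 without KO replicate 1. Scd2, a form abundant in brain, showed a small difference in the same direction. Its KO values were 13.14, 13.05 and 12.97 and its WT values 13.27, 13.20 and 13.20. The difference was -0.17 ± 0.11 (SE; 95% interval -0.43 to 0.09), and the dimmer probe sets, where the groups overlapped, differed by -0.31 and -0.33.

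The desaturase genes form pairs on chromosome 19 of RefSeq GRCm38.p6, where Scd4 is the 1 protein-coding gene between Scd1 and Scd2, and 0 lie between Fads1 and Fads2. Of the 4, Fads2 had a promoter in the RefSeq table used. It is shown because Fads2 had the second largest difference of the 4, and it spans 250 bases before to 50 after the start (GRCm38.p6, chr19:10101454-10101753, minus strand). No motif among those described below was found in this window, so it has no capitals.
Fads2 promoter: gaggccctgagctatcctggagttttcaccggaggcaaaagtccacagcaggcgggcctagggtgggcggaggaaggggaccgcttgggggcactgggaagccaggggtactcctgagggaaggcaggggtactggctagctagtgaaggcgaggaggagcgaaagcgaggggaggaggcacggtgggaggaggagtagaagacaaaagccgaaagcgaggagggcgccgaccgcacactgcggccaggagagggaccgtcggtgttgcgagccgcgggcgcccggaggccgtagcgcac

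**Figure D2:**
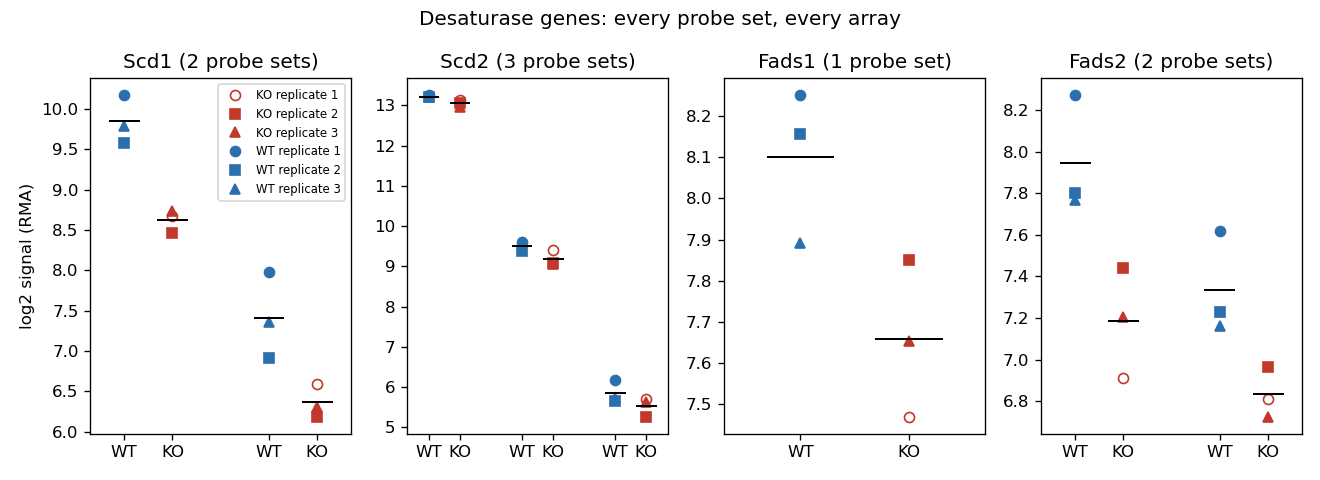
Log2 signal of every probe set of the 4 desaturase genes on each array, WT beside KO. Points are arrays, with shape for the replicate and KO replicate 1 open, and bars are group means (n = 3). On the brightest probe set of Scd1 the KO points lie at 8.47 to 8.74 and the WT points at 9.58 to 10.18.

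Other fatty acid genes had smaller differences or overlapping groups. Fasn, the synthase that builds palmitate, had KO values of 8.59, 10.23 and 9.69 and WT values of 9.96, 10.03 and 9.58. KO replicate 1 was low and the other KO arrays lay among or above the WT arrays. Its difference was -0.35 ± 0.40 (SE) with that array and 0.10 without it. Acsl5, an acyl-CoA ligase that activates fatty acids for use, read 10.45, 11.94 and 11.39 in KO, where the lowest WT array read 11.43. It differed by -0.48 ± 0.38 (SE), and by -0.07 without KO replicate 1. Acsl4, a ligase that prefers arachidonate, differed by -0.14 ± 0.15 (SE) with overlapping groups, and by -0.03 without WT replicate 1.

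Acly, which makes cytosolic acetyl-CoA for both pathways, had KO values of 11.35, 11.73 and 11.65 and WT values of 11.75, 11.76 and 11.68. It differed by -0.15 ± 0.13 (SE), and by -0.04 without KO replicate 1. The 2 of its probe sets with a positive sign, at 0.03 and 0.02, had means of 3.02 and 2.97, below the lowest mean tested. The elongases lengthen fatty acids. Elovl5, which acts on polyunsaturated acids, had KO values of 10.99, 10.99 and 11.09 and WT values of 11.13, 11.10 and 11.25, groups apart by 0.007. It differed by -0.13 ± 0.11 (SE), and by -0.09 on its other probe set, where the groups overlapped. Elovl1, which acts on very long saturated acids, differed by -0.19 ± 0.14 (SE), or -0.08 without WT replicate 1, and Elovl6, which acts on palmitate, by 0.05 ± 0.18 (95% interval -0.39 to 0.49). Srebf1 differed by 0.15 ± 0.14 (SE; 95% interval -0.18 to 0.49), with overlapping groups. Acaca, which was not tested, had KO values of 3.90, 4.73 and 4.59 and WT values of 4.51, 4.39 and 4.46.

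The sterol genes were lower in KO in 16 of 20 cases, with a median difference of -0.23. Without KO replicate 1 the median was -0.08, with 16 of 20 still lower. That array held the lowest of the 6 values in 11 of the 20 sterol genes (55.0%) and in 7 of the 12 fatty acid genes (58.3%), against 30.2% of all genes. The median level of the sterol genes was -0.32 on KO replicate 1, 0.02 and -0.02 on KO replicates 2 and 3, and 0.07, 0.16 and 0.16 on the WT arrays, so the groups did not overlap but lay close without replicate 1. The cell cycle list was low on that array too, at -0.89, and its part in this was not tested.

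In the mevalonate arm, which leads to farnesyl diphosphate, all 5 genes had a lower KO mean, with a median of -0.30, and 4 of 5 had one without KO replicate 1, with a median of -0.05. Idi1, the isomerase of isopentenyl diphosphate, had KO values of 9.75, 11.36 and 10.90 and WT values of 11.36, 11.27 and 10.91. KO replicate 1 alone was low. The difference of -0.51 ± 0.40 (SE; 95% interval -1.47 to 0.45) was -0.05 without it. Hmgcs1, the synthase of HMG-CoA, had KO values of 11.30, 12.34 and 12.37 and WT values of 12.20, 12.40 and 12.30. Its difference of -0.30 ± 0.29 (SE) turned to 0.06 without KO replicate 1, which was the lowest array on all 4 of its probe sets.

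Fdps, the farnesyl diphosphate synthase, was the 1 gene of this arm with groups apart. It had KO values of 11.42, 11.83 and 11.85 and WT values of 11.97, 12.02 and 12.19, with 0.115 between the groups. The difference of -0.36 ± 0.16 (SE) had a limma p of 0.0585 before and 0.631 after adjustment, and it was -0.22 without KO replicate 1. Mvk and Mvd, the kinase and the decarboxylase of the arm, differed by -0.13 ± 0.13 and -0.15 ± 0.15 (SE), with overlapping groups, and by -0.11 and -0.04 without KO replicate 1.

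From squalene to cholesterol, 8 of 9 genes had a lower KO mean, with a median of -0.25, or -0.08 without KO replicate 1. In 4 of the 9 the groups were apart on the lower side, where 6.92% of all genes were. Without that array the same 4 were necessarily still apart, where 11.4% of all genes were. Dhcr7, the reductase of the last step, had KO values of 8.06, 8.69 and 8.62 and WT values of 8.91, 8.95 and 8.88. The WT arrays lay close together (SD 0.04), with a gap of 0.18 to the highest KO array. The difference of -0.46 ± 0.18 (SE; 95% interval -0.90 to -0.01) had a limma p of 0.0453 before and 0.631 after adjustment, and it was -0.26 without KO replicate 1. Lss, which closes squalene epoxide into lanosterol, had KO values of 9.48, 9.32 and 9.39 and WT values of 9.74, 9.50 and 9.78. Its groups were apart by 0.02, and its difference of -0.28 ± 0.13 (SE) was -0.32 without KO replicate 1. The dimmer probe sets of Lss differed by -0.21, with groups apart, and by -0.145, with overlapping groups.

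Nsdhl, an X-linked enzyme of sterol demethylation, had KO values of 9.41, 9.90 and 9.93 and WT values of 9.99, 10.05 and 9.94. Msmo1, the methylsterol oxidase that acts before it, had KO values of 10.03, 10.56 and 10.56 and WT values of 10.59, 10.61 and 10.66. In both the groups were only just apart, by 0.01 and 0.02, and KO replicate 1 was the low array. Their differences of -0.25 and -0.23 were -0.08 and -0.06 without it. Cyp51, the lanosterol demethylase, had KO values of 9.32, 10.25 and 9.99 and WT values of 10.63, 10.36 and 10.09. The groups overlapped, and its difference of -0.51 ± 0.27 (SE) was -0.24 without KO replicate 1. Sqle, the squalene epoxidase, differed by -0.33 ± 0.17 (SE), Sc5d, the desaturase of the sterol ring, by -0.23 ± 0.16, and Fdft1, the squalene synthase, by -0.12 ± 0.15, all with overlapping groups. Without KO replicate 1 these were -0.18, -0.08 and -0.07, and Fdft1 was -0.0056 without WT replicate 3. Hsd17b7, a ketosteroid reductase, was the 1 gene of opposite sign, at 0.25 ± 0.31 (SE), again with overlap.

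**Figure D3:**
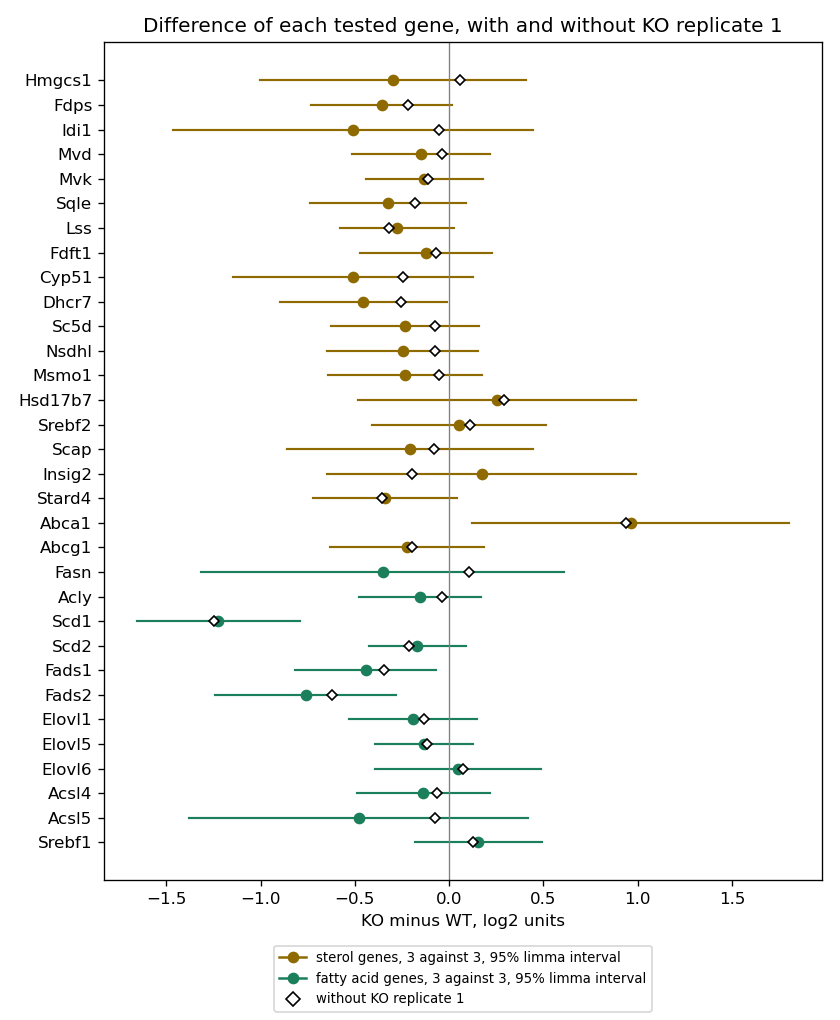
KO minus WT difference of each tested gene in log2 units, as filled circles with 95% limma intervals, coloured by sterol or fatty acid genes. Open diamonds are the differences without KO replicate 1, which lie near 0 for Idi1 (-0.05) and Acsl5 (-0.07) and at -1.25 for Scd1 and -0.62 for Fads2.

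Among the sterol sensors no gene differed by more than its standard error. Srebf2 had KO values of 9.83, 10.04 and 9.99 and WT values of 9.50, 10.11 and 10.10, a difference of 0.05 ± 0.19 (SE; 95% interval -0.41 to 0.51). WT replicate 1 was the low array, without which the difference was -0.15, and the second probe set differed by -0.0067. Scap differed by -0.21 ± 0.27 (SE), with a range of -0.46 to -0.02 with 1 array left out. Insig2 had KO values of 9.40, 8.21 and 8.38 and WT values of 8.16, 8.46 and 8.85, high on KO replicate 1. Its difference of 0.17 ± 0.34 (SE) turned to -0.19 without that array, and its other probe sets differed by -0.04 and -0.08.

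Abca1 was the only tested gene of the 32 with all KO arrays above all WT arrays. This transporter moves cholesterol onto apolipoprotein at the cell surface. It had KO values of 7.42, 7.004 and 7.67 and WT values of 5.68, 6.52 and 7.002. The groups barely missed each other, KO replicate 2 and WT replicate 3 being almost equal, and WT replicate 1 was the lowest array. The difference was 0.96 ± 0.35 (SE; 95% interval 0.12 to 1.80), or 1.95-fold higher in KO, with a limma p of 0.0306 before and 0.631 after adjustment. It was 0.94 without KO replicate 1 and ranged from 0.60, without WT replicate 1, to 1.26 with 1 array left out. The dimmer probe sets had means of 3.69 and 3.23, below the lowest mean tested, and differed by -0.02 and -0.06. Abcg1, which passes cholesterol to HDL, differed by -0.23 ± 0.17 (SE), with overlapping groups. Stard4, which carries cholesterol between membranes, had KO values of 9.21, 9.12 and 9.20 and WT values of 9.30, 9.41 and 9.83. Its groups were apart by 0.10, and the difference of -0.34 ± 0.16 (SE) was -0.18 without WT replicate 3. On its other probe set the groups overlapped, with a difference of -0.18 and KO replicate 1 the highest array at 9.30.

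Promoters of the members were searched on both strands for letters that SREBP, its partner NF-Y and LXR are known to read. The RefSeq table (GRCm38.p6) held 35 promoters of 27 members. The CCAAT box of NF-Y (CCAAT) was in 62.9% of the 35 promoters, against 37.4% of all 32851. It was in 14 of 21 promoters of sterol genes and in 8 of 14 promoters of fatty acid genes. Counted by gene, where some genes have several promoters, these were 14 of 16 and 7 of 11. The core of the sterol regulatory element (TCACNCCAC) was in Hmgcs1 alone, against 1.24% of all promoters. The E-box (CACGTG), which SREBP1 can also bind, was in 8 of the 35 (22.9%), against 7.15% of all. These promoters belong to 7 genes, since 2 overlapping promoters of Scap hold the same site. In the sequences shown no motif overlapped another. A match is a description of letters and no site of binding, and no match says only that the letters are not in this window.

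The promoter of Hmgcs1 is shown because it holds the sterol element and 4 CCAAT boxes, these on the opposite strand (ATTGG), all in capitals (GRCm38.p6, chr13:119690101-119690400, plus strand). Hmgcs1 was the gene that read 11.30 on KO replicate 1 and 12.20 to 12.40 on all other arrays.
Hmgcs1 promoter: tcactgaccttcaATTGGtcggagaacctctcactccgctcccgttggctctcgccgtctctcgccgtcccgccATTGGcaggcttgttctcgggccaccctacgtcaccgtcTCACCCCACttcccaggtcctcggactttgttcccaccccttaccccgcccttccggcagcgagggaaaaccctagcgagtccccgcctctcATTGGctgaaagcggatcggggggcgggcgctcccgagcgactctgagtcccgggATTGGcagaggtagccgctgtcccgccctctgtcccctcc

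The promoters of Abca1, Srebf1 and Fasn, which LXR is known to act on, share a stretch of 17 bases with at most 2 differing, in capitals below (TGACCGNNAGTAACCCC). It was found by comparing these 3 promoters, so that only 3 of 32851 promoters, these, hold it carries no weight. It starts 67, 182 and 225 bases before the gene start in Abca1, Srebf1 and Fasn. The windows shown lie at chr4:53159924-53159984, chr11:60210615-60210675 and chr11:120824734-120824794 (GRCm38.p6), all on the minus strand.
Abca1: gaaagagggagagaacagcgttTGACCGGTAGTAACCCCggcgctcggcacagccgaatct
Srebf1: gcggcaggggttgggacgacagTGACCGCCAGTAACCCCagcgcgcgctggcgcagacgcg
Fasn: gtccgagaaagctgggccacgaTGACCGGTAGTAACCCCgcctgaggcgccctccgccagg
The 3 genes differed by 0.96, 0.15 and -0.35 (0.94, 0.12 and 0.10 without KO replicate 1), of which none passed after adjustment.

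Further genes of the pathways were read from lists. Of the other sterol synthesis enzymes 5 of 8 were tested, 3 of them lower, with a median of -0.20 and 0 past the test. Tm7sf2, a sterol reductase, differed by -0.28 ± 0.12 (SE), with groups apart, and Ebp, a sterol isomerase, by -0.20 ± 0.12. They differed by -0.21 and -0.26 without KO replicate 1, and 4 of the 5 enzymes were then lower, with a median of -0.20. Of other fatty acid synthesis genes 11 of 21 were tested, 10 of them lower, with a median of -0.09 and 0 past the test. Mid1ip1, an activator of acetyl-CoA carboxylase, differed by -0.32 ± 0.18 (SE), and Hacd2, a dehydratase of the elongation cycle, by -0.28 ± 0.15. Without KO replicate 1 they differed by -0.14 and -0.18, and 8 of these 11 fatty acid genes were lower, with a median of -0.10.

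Of the uptake and handling genes 6 of 9 were tested, 5 of them higher, with a median of 0.15 and 0 past the test. The exception in sign was Scarb1, the HDL receptor, with KO values of 8.14, 8.39 and 8.28 and WT values of 8.49, 8.69 and 8.78, groups that did not overlap. Its difference of -0.39 ± 0.13 (SE) had a limma p of 0.0231 before and 0.631 after adjustment, and it was -0.32 without KO replicate 1. Without that array 4 of the 6 uptake and handling genes were higher, with a median of 0.09. Of the LXR receptors and targets 7 of 8 were tested and all 7 were higher, with a median of 0.08 and 0 past the test. All 7 were still higher without KO replicate 1, with a median of 0.14 and 0 past the test. The groups were then apart on the higher side in 4 of them (10.5% of all genes), against 0 with all arrays (5.86%). Mylip, which marks the LDL receptor for degradation, differed by 0.21 ± 0.12 (SE), and Rxra, the partner of LXR, by 0.14 ± 0.12, but by -0.13 as the mean of its probe sets. Of the genes that process SREBP 3 of 7 were tested, 2 of them higher, with a median of 0.07 and 0 past the test. Without KO replicate 1, 1 of the 3 was higher and the median turned to -0.02. Mbtps1, the protease of the first cut, differed by 0.16 ± 0.13 (SE), or 0.07 without KO replicate 1, with groups apart, and Erlin1 by 0.07 ± 0.24, which was -0.13 without KO replicate 1.

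**Figure D4:**
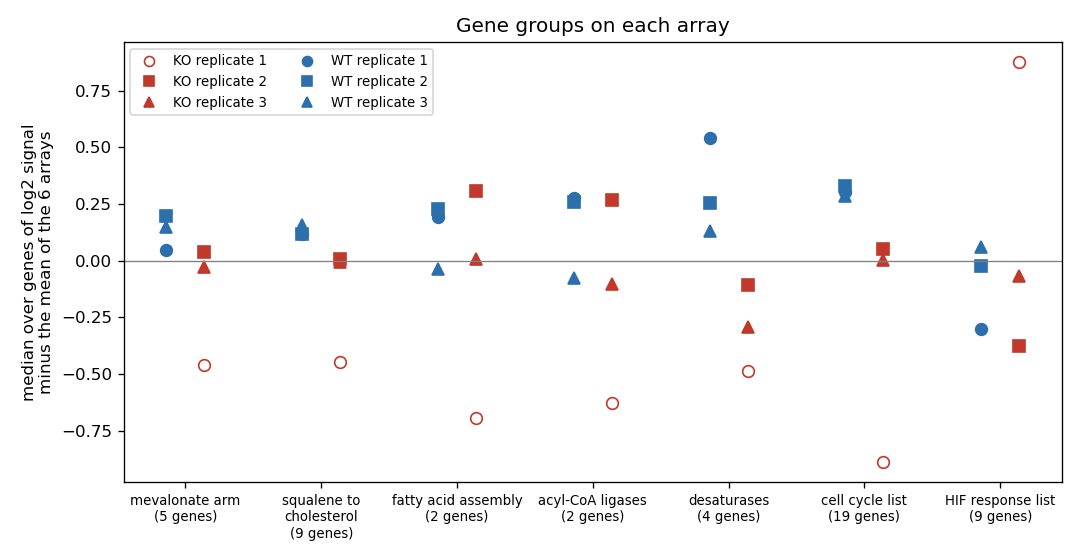
Median over the tested genes of each group of the log2 signal minus the mean of the 6 arrays, for each array. KO replicate 1, the open circle, is the lowest array in the 5 groups of members drawn and in the cell cycle list (-0.89) and the highest in the HIF response list (0.88). In the desaturases the other KO arrays (-0.11 and -0.29) also lie clearly below the WT arrays (0.13 to 0.54). They lie below them too in the cell cycle list (0.05 and 0.00, WT 0.28 to 0.33) and in squalene to cholesterol (0.009 and -0.005, WT 0.12 to 0.16). In the mevalonate arm they are only just below.

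Gene groups thus differed in how far KO replicates 2 and 3 were from the WT arrays. On fatty acid assembly (Fasn and Acly) they were at 0.31 and 0.01, within or above the WT range of -0.04 to 0.23, and on the acyl-CoA ligases at 0.27 and -0.10, against -0.08 to 0.28. On the desaturases they were at -0.11 and -0.29, below the WT range of 0.13 to 0.54. They also lay below the WT arrays on squalene to cholesterol (0.009 and -0.005, WT 0.12 to 0.16). The same held for the cell cycle list (0.05 and 0.00, WT 0.28 to 0.33). On the mevalonate arm (0.04 and -0.03, WT 0.05 to 0.20) and the elongases (-0.09 and 0.001, WT 0.008 to 0.15) they were only just below. KO replicate 1 was not the lowest array in every group of members. On sterol sensing it was at -0.10, above KO replicate 3 at -0.20 and WT replicate 1 at -0.41. On sterol transport it was at -0.14, above KO replicate 2 at -0.22 and WT replicate 1 at -0.16. The difference between these groups of genes was not tested.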

How the data were processed

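The deposited table holds log2 signals of 22690 probe sets on 6 arrays. The authors made them with RMA (affy), as the submitters' processing notes name these tools without versions. No detection calls were used, and 3 arrays per group limit the precision. Array medians were 6.45 to 6.49.

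GEO's platform annotation gave 20380 probe sets 1 gene symbol, 691 several and 1606 none (controls left out of the first). The probe set of highest mean stood for a gene, and the lowest 25% of genes were left out, leaving 9295. The genotypes were compared by limma 3.58.1 (R 4.3.3), two-sided, with Benjamini-Hochberg adjustment over these genes, by code tested on simulated data. Single values also had an exact permutation test. Of the 32 members tested, 6 were read from x_at or s_at probe sets, which can bind other transcripts.

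The members, lists and motifs were chosen with earlier results of these data known. By rule, all 6 values are given for members with an unadjusted p under 0.05, with groups apart or with probe sets of opposite sign, and of each list up to 4 genes with an unadjusted p under 0.05, or else the 2 of smallest p, are named. Idi1, Hmgcs1, Cyp51, Fasn and Acaca, and Acsl5 with part of its values, were added once their values were known.

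Alternatives were a replicate block, leaving out arrays, other normalizations, filters, probe set rules and moderation, array weights (statmod 1.5.0), and an adjusted p under 0.1.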

Additional observations from a re-analysis of the deposited data

How the results depend on the processing

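No member passed after adjustment in any alternative but array weights. Weights estimated by REML put 5.55 and 5.04 on KO replicate 3 and WT replicate 2 and 0.27 to 0.58 on the other arrays, so that fit rests mostly on 1 array a group. It called 3575 genes, or 38.5%, and 13 members, or 40.6% of those tested (unadjusted 4711 and 16), with limma after Benjamini-Hochberg adjustment. Weights from the gene-by-gene estimate, added after seeing the data, called 0 genes and 0 members, with 2131 genes at an unadjusted p under 0.05. With 1 array left out, the genes at an unadjusted p under 0.05 ranged from 276 to 1542 and the members from 2 to 9, against 691 and 5 with all arrays. The median difference of the sterol genes then ranged from -0.33 to -0.079 (without KO replicate 1), and that of the fatty acid genes from -0.24 to -0.10. Directions turned in 5 members and in Erlin1 and Rxra of the further lists. With 1 array left out, Hmgcs1 ranged from -0.48 to 0.056, Insig2 from -0.19 to 0.40, Fasn from -0.71 to 0.10, Elovl6 from -0.12 to 0.19, Srebf2 from -0.15 to 0.16 and Erlin1 from -0.13 to 0.26. With array weights Srebf2 was at -0.059, Insig2 at -0.053 and Erlin1 at -0.084, and with the gene-by-gene weights at -0.00025, -0.013 and -0.056. With the mean of all probe sets Rxra was at -0.13. The causes were not tested. The main fit did not pair arrays by replicate number. The deviations of same-numbered arrays correlated at -0.042, 0.64 and 0.40, and those of KO replicate 1 and WT replicate 3 at 0.39. These values do not settle whether the arrays form pairs. Sex-linked transcripts did match between same-numbered arrays, as given above, and the main fit takes no account of this. With the replicate block, 0 genes and 0 members passed after adjustment, and 918 genes and 6 members had an unadjusted p under 0.05.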

Other observations

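Genes that assemble glycerolipids, the use to which fatty acyl chains are put, were all higher in KO in the 7 of 9 tested, with a median log2 difference of 0.51 and 0 past the test after adjustment. Without KO replicate 1, 4 were higher and the median was 0.0012. Lpin1, the phosphatidate phosphatase, had KO values of 9.71, 9.18 and 9.55 and WT values of 8.51, 8.91 and 8.99. It differed by 0.68 ± 0.20 (SE; limma p 0.0116, adjusted p 0.631), and by 0.56 without KO replicate 1, with groups that did not overlap. Dgat1, which makes triglyceride, had KO values of 11.18, 9.18 and 10.24 and WT values of 8.69, 8.31 and 9.36, a difference of 1.41 ± 0.52 (SE) that was 0.92 without that array, with groups that overlapped.

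Fatty acid oxidation genes, the opposing pathway, showed no common direction, with 6 of 12 tested genes higher and 6 lower and a median of -0.01. Without KO replicate 1, 7 were lower and 5 higher. Their median was then -0.08, near that of the sterol members (-0.08) and the fatty acid members (-0.10). Etfb and Etfa, the electron transfer flavoprotein subunits, differed by -0.26 ± 0.15 and -0.15 ± 0.10 (SE), or -0.14 and -0.11 without KO replicate 1, with groups that did not overlap. All 19 tested cell cycle genes were lower in KO, with a median of -0.62 and of -0.26 without KO replicate 1, and 4 had an unadjusted limma p under 0.05 (3 without that array), where 3.86% of all genes did on the lower side (2.64% without it). With all arrays these were Bub1 (-0.37), Aurkb (-0.49, or -0.32 without KO replicate 1), Mcm5 (-0.67) and Mcm3 (-0.78), none past the test after adjustment. Without KO replicate 1 they were Bub1, Aurkb and Cdk1 (-0.36), again with none past the test. All 9 tested HIF response genes were higher, with a median of 0.30, which was -0.20 without KO replicate 1, with 0 at an unadjusted limma p under 0.05. Vegfa differed by 0.65, or 0.26 without KO replicate 1, and Ddit4 by 0.52, or 0.19 without WT replicate 1.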
